A study of Mus musculus with 6 samples.

Results

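Interleukin-6 (IL-6), IL-12, IL-23, IL-27 and IL-10 are secreted signalling proteins of activated macrophages, and 9 genes that encode their subunits and the IL-6 receptor were followed in miR-155 knockout (KO) macrophages. The genes were Il6, Il12a, Il12b, Il23a, Il27, Ebi3, Il10, Il6ra and Il6st, and each was represented by every probe set whose only gene symbol was that gene. This gave 13 probe sets for 8 of the 9 genes, of 20967 genes measured in this way, with 4 for Il6st, 2 each for Il6ra and Il12b and 1 each for Il6, Il12a, Il23a, Ebi3 and Il10. Il27 was not analysed here.

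IL-12 family cytokines are heterodimers of an alpha and a beta subunit. IL-12 joins p35, from Il12a, to p40, from Il12b, and IL-23 joins p19, from Il23a, to the same p40. IL-27 joins p28, from Il27, to the beta subunit EBI3, from Ebi3. IL-6 binds the receptor chain that Il6ra encodes, and the complex signals through gp130, which Il6st encodes and which is also a chain of the IL-27 receptor and of the receptors of other IL-6 family cytokines. IL-6 and IL-12 are known as products of classically activated macrophages, and IL-10 as a brake on them.

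Macrophages were grown from bone marrow of 2 mice that lack miR-155 (strain B6.Cg-Mir155tm1.1Rsky/J), in medium with L929 cell supernatant as the source of macrophage colony stimulating factor, and were replated on day 7 without it. Cells of each mouse were stimulated with LPS at 100 ng/ml and IFN-γ at 20 ng/ml, called KO M1(LPS + IFN-γ), stimulated with IL-4 at 20 ng/ml, called KO M2(IL-4), or left in medium alone, called KO M0. The dose of LPS is that of the sample labels, and the study's methods give another. RNA was taken at 24 hours and hybridised to 6 Affymetrix mouse arrays, 2 per condition from different mice. Mouse 1 and mouse 2 stand for the arrays titled KO1 and KO2, which were read as the same animal in every condition, although no label says so outright. All 6 arrays come from KO cells, and no WT array was analysed here, so each comparison is between conditions of KO cells. The cells were measured in bulk, so a change in RNA per cell cannot be told apart from a change in the share of cells that express a gene.

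The microRNA removed in these mice is shown with its seed, bases 2 to 8, in capitals, since the seed sets which transcripts a microRNA pairs with. Beside it stand the 250 bases upstream of the transcription start of Ebi3 and Il6st, whose levels differed between the conditions, and of Il6, whose level was low. Capitals in these mark matches to the motifs searched. All sequences are from RefSeq on GRCm38.p6 and run 5′ to 3′ on the strand of the gene, which is the plus strand in each. Gene positions given below are those of RefSeq on the same build.
mmu-miR-155-5p, chr16:84714143-84714165: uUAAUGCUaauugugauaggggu
Ebi3, chr17:55952373-55952622: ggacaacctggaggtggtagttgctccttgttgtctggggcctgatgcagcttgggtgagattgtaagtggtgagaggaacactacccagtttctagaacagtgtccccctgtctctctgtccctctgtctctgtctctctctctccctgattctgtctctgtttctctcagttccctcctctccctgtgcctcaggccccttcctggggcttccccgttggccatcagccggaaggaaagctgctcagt
Il6st, chr13:112463820-112464069: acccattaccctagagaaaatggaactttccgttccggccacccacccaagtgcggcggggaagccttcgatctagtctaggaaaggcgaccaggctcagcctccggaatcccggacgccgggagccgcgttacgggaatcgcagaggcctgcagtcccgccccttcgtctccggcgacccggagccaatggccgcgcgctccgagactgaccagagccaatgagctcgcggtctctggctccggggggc
Il6, chr5:30012864-30013113: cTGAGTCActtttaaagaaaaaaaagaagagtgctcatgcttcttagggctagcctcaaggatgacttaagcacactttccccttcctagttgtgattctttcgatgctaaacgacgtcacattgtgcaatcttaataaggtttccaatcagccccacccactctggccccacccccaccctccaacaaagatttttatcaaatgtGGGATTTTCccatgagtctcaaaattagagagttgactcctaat

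Il6 had an NF-kB match, GGGATTTTC, 44 to 36 bases before its start, and an AP-1 match, TGAGTCA, 249 to 243 bases before it. None of the motifs was matched in the windows of Ebi3, Il6st, Il12b or either start of Il12a, and Il6ra had 1 match, the C/EBP match TTTCGTAA, 116 to 109 bases before its start. The motifs were searched on both strands, and no matches overlapped. They were NF-kB as GGGANNTTC, held by 3.23% of 32851 promoter windows of the same length, an IRF element as GAAANNGAA, held by 7.13%, GAS, the site of STAT factors, as TTCNNNGAA, held by 7.02%, AP-1 as TGANTCA, held by 6.75%, and C/EBP as TTNCGNAA, held by 2.04%. RefSeq gave 7 windows, for 6 of the 9 genes. A match is a run of letters and was not tested for binding.

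The median intensity of the arrays lay between 37.9 and 40.8. The mice differed more than 2-fold in 433 of 45037 probe sets in KO M1, in 120 in KO M2 and in 49 in KO M0. The probe set of Mir155, the host transcript of miR-155, read 9.33 to 10.8 over the 6 arrays, below the median of each array. Its place with respect to the deletion is not known here, so this is no check of the genotype. All 10 macrophage markers were above the level of tissue-restricted genes in every condition, and 5 of them were below KO M0 in KO M2 (Emr1, Cd14, Fcgr1, Mertk and Aif1), as Ebi3 and Il6ra were, while 1, Itgam, was higher and 1, Lgals3, lower in KO M1. The summed intensity of 5 fibroblast markers was 334 and 275 in KO M1, 508 and 188 in KO M2 and 284 and 185 in KO M0, and that of 8 neutrophil markers was 666 and 408 in KO M1, 327 and 264 in KO M2 and 341 and 329 in KO M0, each as mouse 1 and mouse 2. Dcn, of the fibroblast list, and S100a8, of the neutrophil list, were higher in KO M1 against KO M0 (adjusted p = 0.042 and 0.014), as were Ccr7 of 7 dendritic cell markers (adjusted p = 0.047) and Hdc of 6 mast cell markers (adjusted p = 0.037). In KO M1 Ccr7 read 33.6 and 43.1 and Hdc 58.7 and 49.5, below the level of tissue-restricted genes (67.6 and 68.1). Dcn read 75.8 and 44.7 there, below it in mouse 2, and S100a8 293 and 164, above it. Zbtb46 of the dendritic cell list was higher (adjusted p = 0.039) and Cd4 of 8 T and NK cell markers was lower (adjusted p = 0.0092) in KO M2 against KO M0, and none of 6 B cell markers was called in either by limma (1 was higher in KO M1 and 0 changed in KO M2 at an unadjusted p under 0.05, and 0 in either by the methods' t-test). No marker was at 0. For Gapdh, log2 of its 3′ signal over its 5′ signal was 0.09 and 0.15 in KO M1, 0.2 and 0.11 in KO M2 and -0.08 and -0.07 in KO M0. For Actb it was 0.19 and 0.19 in KO M1, 0.32 and 0.23 in KO M2 and 0.15 and 0.16 in KO M0, highest in KO M2. The part of markers and RNA quality in the results below was not tested.

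Only 3 of the 8 genes, Ebi3, Il6ra and Il6st, were above the median of the array on all 6 arrays, and this holds for all 7 of their probe sets. The other 6 probe sets, of Il6, Il12a, Il12b, Il23a and Il10, stayed at or below the 95th percentile of 20 tissue-restricted genes, such as those of lens, liver and sperm, on every array. That percentile was 60.2 to 68.1. By the stricter rule of lying below the array median on both arrays of a condition, 3 of the 13 probe sets were near background in KO M1, 5 in KO M2 and 6 in KO M0. Il12b and Il23a were near background in all 3 conditions by this rule. Intensities of different probe sets are set against the array here and not against each other.

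**Figure D1:**
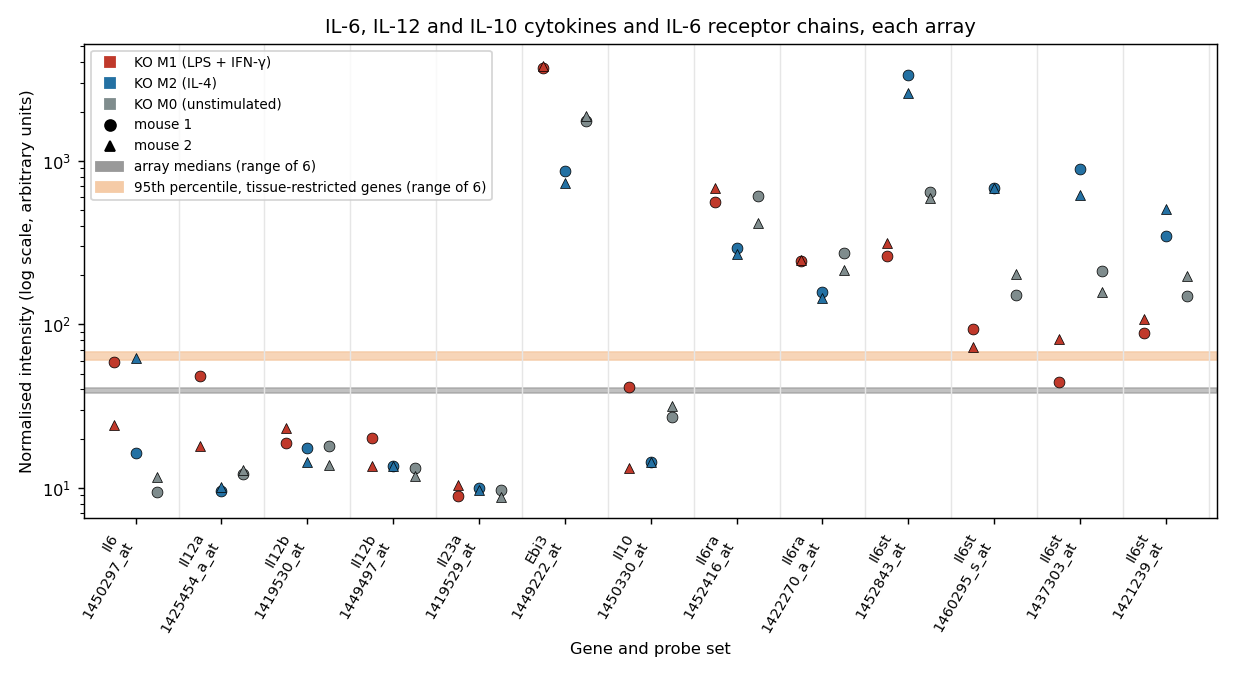
Normalised intensity of the 13 probe sets on each array, on a log axis, with KO M1, KO M2 and KO M0 from left to right within each probe set, circles for mouse 1 and triangles for mouse 2. The grey band is the range of the array medians, 37.9 to 40.8, and the orange band that of the 95th percentile of tissue-restricted genes, 60.2 to 68.1. Points of Ebi3 and Il6ra lie above both bands and those of Il6st above the grey band, while no point of the other 5 genes lies above the orange band's upper edge.

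KO M1 against KO M0 shows how the genes stood after classical activation. Ebi3 rose and Il6st fell, while Il6, Il12a, Il12b, Il23a, Il10 and Il6ra did not pass the test. Of the 13 probe sets 1 was higher, that of Ebi3, and 3 were lower, all of Il6st, at an adjusted p under 0.05. Of all 45037 probe sets 2.76% were higher and 4.32% were lower. The median log2 change was 0.05 over the 13 probe sets and 0.03 over all probe sets. These and all later adjusted p-values are from limma with Benjamini-Hochberg adjustment over all probe sets, n = 2 arrays per condition.

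KO M2 against KO M0 shows the response to IL-4. Here Il6st rose, and Ebi3 and Il6ra fell. Of the 13 probe sets 4 were higher, all of Il6st, and 3 were lower, that of Ebi3 and both of Il6ra, where 3.61% of all probe sets were higher and 3.57% lower. The median log2 change was 0.09 over the 13 probe sets and -0.02 over all. Over the whole array 1624 probe sets were higher and 1610 lower as deposited, and 2028 and 1233 after each array was centred on its median, and the calls of the 13 probe sets were the same in both. KO M1 and KO M2 share the KO M0 arrays in these comparisons.

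KO M1 against KO M2 sets the activations against each other. Ebi3, Il12a and Il6ra were higher and Il6st was lower in KO M1. Of the 13 probe sets 4 were higher, that of Ebi3, that of Il12a and both of Il6ra, and 4 were lower, all of Il6st, where 5.31% of all probe sets were higher and 7.63% lower. The median log2 change was 0.29 over the 13 probe sets and 0.05 over all.

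**Figure D2:**
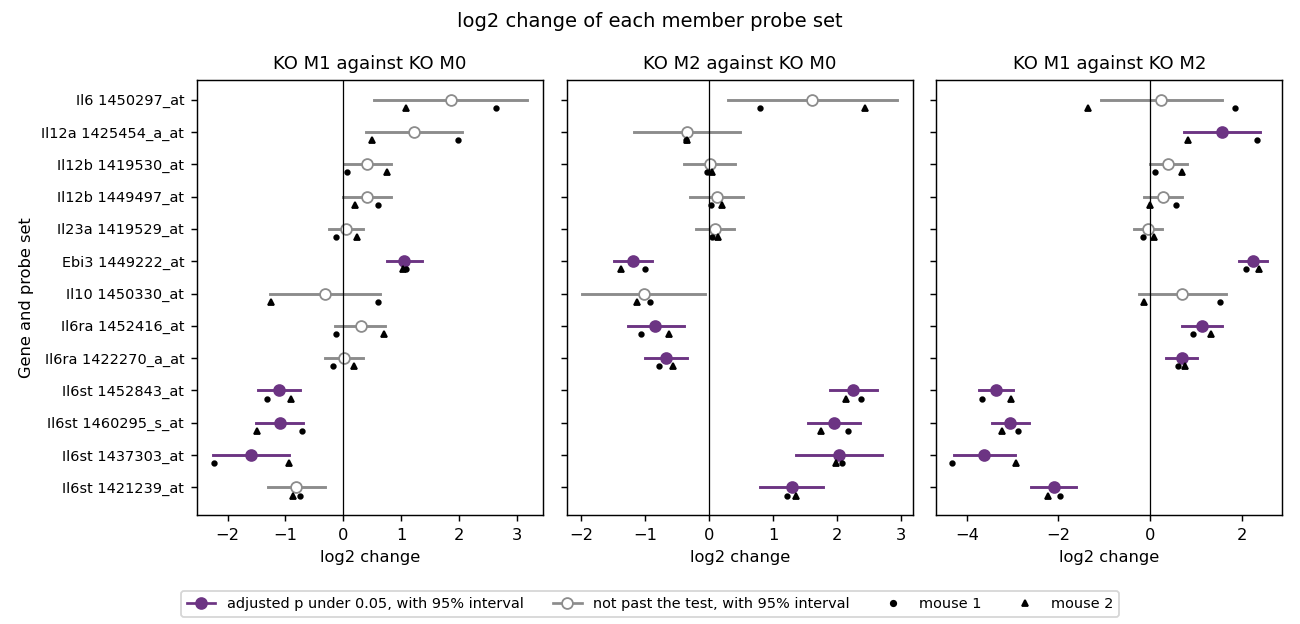
log2 change of each probe set in KO M1 against KO M0, KO M2 against KO M0 and KO M1 against KO M2, with 95% intervals from limma, and small marks for the change within mouse 1 (circle) and mouse 2 (triangle). Filled symbols passed an adjusted p of 0.05. Ebi3 is at 1.06, -1.19 and 2.25, and the Il6st probe sets lie on the other side of 0 from it in every panel.

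Ebi3 was the only IL-12 family subunit measured above the array median on every array. Ebi3, the beta subunit of IL-27 (chromosome 17, 55952623 to 55957022, probe set 1449222_at), read 3706 and 3821 in KO M1, 862 and 728 in KO M2 and 1741 and 1874 in KO M0, for mouse 1 and mouse 2. The arrays of the 3 conditions did not overlap, and the mice lay close together within each. The order of the levels was KO M1, KO M0, KO M2, and each neighbour differed from the next. Ebi3 was 2.08-fold higher in KO M1 than in KO M0 (95% interval 1.69 to 2.57, log2 change 1.06, SE 0.13, adjusted p = 0.0021) and 2.28-fold lower in KO M2 than in KO M0 (1.85 to 2.81, adjusted p = 0.0012). It was 4.75-fold higher in KO M1 than in KO M2 (3.86 to 5.85, adjusted p = 2e-05). Both mice had the same direction in each comparison, with log2 changes of 1.09 and 1.03 in KO M1 and of -1.01 and -1.37 in KO M2, against KO M0.

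The alpha subunit genes were low. Il12a, which encodes p35 (chromosome 3, 68690644 to 68698550, 1425454_a_at), read 48.2 and 18.1 in KO M1, 9.57 and 10.2 in KO M2 and 12.2 and 12.9 in KO M0. Both KO M1 arrays were above the other 4, but the mice of KO M1 were 2.67-fold apart. Its log2 change was 1.58 in KO M1 against KO M2 (SE 0.36, 95% interval 0.75 to 2.41, adjusted p = 0.023), and 0.87 without the mouse 1 array of KO M1 and 2.29 without the mouse 2 array. Without either KO M2 array the adjusted p was 0.11. Against KO M0 the log2 change was 1.23 in KO M1 (adjusted p = 0.087, and 0.00014 with a change of 1.94 without the mouse 2 array of KO M1) and -0.35 in KO M2 (adjusted p = 0.7). Every reading of Il12a lay below the 95th percentile of the tissue-restricted genes.

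Il23a, which encodes p19 of IL-23 (chromosome 10, 128296140 to 128298084, 1419529_at), read 8.9 and 10.4 in KO M1, 9.96 and 9.76 in KO M2 and 9.71 and 8.83 in KO M0. It lay between the 10.9th and 14.8th percentiles of the arrays, and its log2 changes of 0.05, 0.09 and -0.04 in KO M1 against KO M0, KO M2 against KO M0 and KO M1 against KO M2 did not pass the test. The 95% interval in KO M1 against KO M0 was -0.25 to 0.35.

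The shared beta subunit p40 was near background too. Il12b (chromosome 11, 44400063 to 44414677) read 18.9 and 23.4 in KO M1, 17.5 and 14.4 in KO M2 and 18 and 13.9 in KO M0 at 1419530_at, and 20.3 and 13.7 in KO M1, 13.7 and 13.6 in KO M2 and 13.3 and 11.9 in KO M0 at 1449497_at. All 12 readings were below the median of their array. The log2 change in KO M1 against KO M0 was 0.41 at both probe sets, with 95% intervals of 0.01 to 0.82 and -0.01 to 0.83 and adjusted p of 0.24 and 0.26. Without the mouse 2 array of KO M1 the change at 1449497_at was 0.69 against KO M0 (adjusted p = 0.028) and 0.57 against KO M2 (adjusted p = 0.042). In KO M2 against KO M0 the changes were 0.01 and 0.12, which did not pass the test.

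For Il6 and Il10, the remaining cytokines, arrays of 1 condition stood far apart. Il6 (chromosome 5, 30013114 to 30019975, 1450297_at) read 59 and 24.4 in KO M1, 16.3 and 62.4 in KO M2 and 9.42 and 11.6 in KO M0. All 4 stimulated arrays were above both KO M0 arrays, with the higher value in mouse 1 after LPS and IFN-γ and in mouse 2 after IL-4. The log2 change was 1.86 in KO M1 against KO M0 (SE 0.58, 95% interval 0.54 to 3.18, adjusted p = 0.1) and 1.61 in KO M2 against KO M0 (0.29 to 2.93, adjusted p = 0.16). Neither passed the test. For the first, the adjusted p was 0.03 when either KO M2 array was left out and 0.042 without the mouse 2 array of KO M1. The second had 0.03 without the mouse 1 array of KO M2. Between KO M1 and KO M2 the mice moved in opposite directions, by 1.86 and -1.35 on the log2 scale, around a mean of 0.25 (adjusted p = 0.83).

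Il10, the anti-inflammatory cytokine (chromosome 1, 131019845 to 131024970, 1450330_at), read 41.6 and 13.3 in KO M1, 14.4 and 14.5 in KO M2 and 27.3 and 31.6 in KO M0. Both KO M0 arrays were above both KO M2 arrays, while the KO M1 array of mouse 1 was the highest of the 6 and that of mouse 2 the lowest. The log2 change was -1.02 in KO M2 against KO M0 (95% interval -1.98 to -0.07, adjusted p = 0.22). That p was 0.0016 when the KO M1 arrays, which were 3.13-fold apart, were left out singly or together, with the change the same. Its change in KO M1 against KO M0 was -0.32 (adjusted p = 0.74), and it was -1.14 (adjusted p = 0.0044) without the mouse 1 array of KO M1 and 0.5 (adjusted p = 0.1) without the mouse 2 array. The change in KO M1 against KO M2 was 0.7 (adjusted p = 0.34) with both, and 1.53 (adjusted p = 0.00031) without the mouse 2 array of KO M1.

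**Figure D3:**
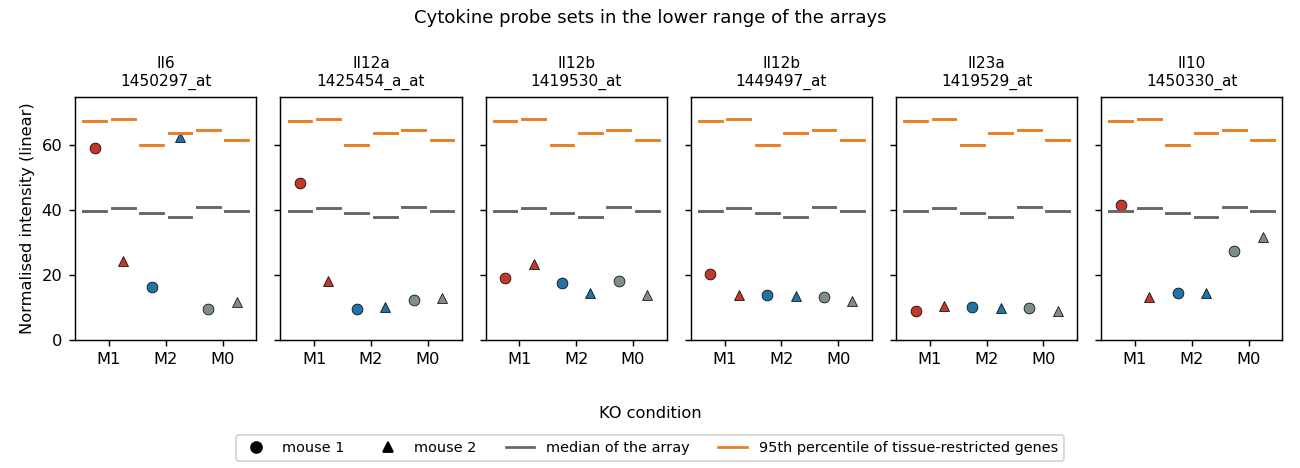
Normalised intensity, on a linear axis, of the 6 probe sets of Il6, Il12a, Il12b, Il23a and Il10 on each array, in KO M1, KO M2 and KO M0 from left to right, circles for mouse 1 and triangles for mouse 2. Grey bars mark the median of each array and orange bars the 95th percentile of tissue-restricted genes on it. No point lies above its orange bar, and the mice of KO M1 stand apart for Il6 (59 and 24.4), Il12a (48.2 and 18.1) and Il10 (41.6 and 13.3).

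The signalling chain of the IL-6 receptor had the largest changes past the test among the 8 genes. Il6st, which encodes gp130 (chromosome 13, 112464070 to 112506860), read 262 and 316 in KO M1, 3345 and 2602 in KO M2 and 649 and 591 in KO M0 at its brightest probe set, 1452843_at. The 3 conditions did not overlap at this probe set, and their order was KO M2, KO M0, KO M1, the reverse of that of Ebi3. In KO M2, Il6st was 4.76-fold above KO M0 (95% interval 3.69 to 6.15, log2 change 2.25, SE 0.16, adjusted p = 0.00012). KO M1 was 2.15-fold below KO M0 (1.67 to 2.78, log2 change -1.11, adjusted p = 0.0046, and 0.062 without the mouse 1 array of KO M0). KO M1 was 10.3-fold below KO M2 (7.94 to 13.2, adjusted p = 7.9e-06).

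The other 3 probe sets of Il6st had the same order of conditions. At 1460295_s_at the readings were 93.1 and 72.4 in KO M1, 683 and 681 in KO M2 and 152 and 203 in KO M0. At 1437303_at they were 44.6 and 81.9 in KO M1, 890 and 621 in KO M2 and 211 and 157 in KO M0. At 1421239_at they were 88.4 and 108 in KO M1, 347 and 509 in KO M2 and 149 and 198 in KO M0. No arrays of different conditions overlapped at any of the 4 probe sets, which read the same RNA and are not independent of each other. Those of Il12a and those of Il12b at 1449497_at, which were low throughout, did not overlap either. The share of all probe sets without overlap was not counted. With 2 arrays per condition the lack of overlap is thus not particular to Il6st, and nothing is drawn from it. The log2 change over the 4 ran between 1.29 and 2.25 in KO M2 against KO M0, with 4 of 4 past the test, and between -1.59 and -0.81 in KO M1 against KO M0, with 3 of 4 past it. In KO M1 against KO M2 it ran between -3.62 and -2.1, again with 4 of 4 past the test. The exception was 1421239_at in KO M1 against KO M0, at -0.81 (adjusted p = 0.06), which became 0.016 in the fit blocked by mouse and 0.045 when either KO M2 array was left out.

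The fall of Il6st in KO M1 rested on the KO M0 arrays in places. At 1460295_s_at its adjusted p was 0.0072, and 0.069 without the mouse 2 array of KO M0. At 1437303_at it was 0.014, and 0.13 without the mouse 1 array and 0.055 without the mouse 2 array of KO M0. The rise in KO M2 at 1437303_at had an adjusted p of 0.0044, and 0.053 without the mouse 2 array of KO M0. At 1421239_at the rise had 0.0088, and 0.095 without the mouse 1 array of KO M0 and 0.054 without the mouse 2 array of KO M2. The direction was the same in each of these.

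Il6ra, the ligand-binding chain (chromosome 3, 89869324 to 89913196), had a lower level after IL-4. It read 563 and 680 in KO M1, 292 and 271 in KO M2 and 610 and 415 in KO M0 at 1452416_at, and 244 and 247 in KO M1, 158 and 146 in KO M2 and 274 and 216 in KO M0 at 1422270_a_at. Both KO M2 arrays were below the other 4 at both probe sets, while KO M1 and KO M0 overlapped. Il6ra was 1.79-fold lower in KO M2 than in KO M0 at the first (95% interval 1.32 to 2.42, log2 change -0.84, SE 0.19, adjusted p = 0.035) and 1.6-fold lower at the second (1.27 to 2.01, adjusted p = 0.027). In the fit blocked by mouse the adjusted p of the first was 0.059. Without the mouse 1 array of KO M0, the mouse 1 array of KO M2 and the mouse 2 array of KO M2, in that order, it was 0.23, 0.13 and 0.17 at the first and 0.22, 0.098 and 0.14 at the second, while the log2 change was -0.56, -0.89 and -0.79 at the first and -0.51, -0.74 and -0.62 at the second.

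Il6ra was 2.2-fold higher in KO M1 than in KO M2 at 1452416_at (95% interval 1.63 to 2.97, adjusted p = 0.005) and 1.61-fold higher at 1422270_a_at (1.29 to 2.03, adjusted p = 0.014, and 0.052 and 0.1 without the mouse 1 or the mouse 2 array of KO M2). Against KO M0, its log2 changes in KO M1 were 0.3 (95% interval -0.14 to 0.73) and 0.01 (-0.31 to 0.34), which did not pass the test. The order of the levels was thus KO M1 and KO M0, which did not differ beyond their spread, and then KO M2. Il6ra and Il6st, the chains of 1 receptor, had opposite directions in KO M2.

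For each of these 3 genes the genes of most similar pattern were sought among 1933 genes that were above the array median on at least 2 arrays and whose log2 level spanned at least 1, by Pearson's r of log2 intensity over the 6 arrays. The points are 3 conditions of 2 mice, so r mostly reads the order of the conditions, and it is a description. Ebi3 was most like Sirpb1a (r = 0.9978), Abi3 (0.9965) and Pilrb1 (0.9963), and Sirpb1a read 1421 and 1793 in KO M1, 156 and 133 in KO M2 and 459 and 519 in KO M0. Il6st was most like Sept11 (r = 0.9996) and also like Fem1b (0.9988), and Sept11 read 215 and 239 in KO M1, 1078 and 965 in KO M2 and 386 and 352 in KO M0. Il6ra was most like Apoc2 (r = 0.971) and also like Hsd17b11 (0.9694). The number of genes with r over 0.95 was 183 for Ebi3, 262 for Il6st and 15 for Il6ra.

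Other ligands of the IL-6 and IL-10 families showed no call. Of 7 listed IL-6 family ligands 6 were measured, among them Lif, Osm and Il11, and none passed the test in any comparison, with a median log2 change of 0.12 in KO M1 and -0.11 in KO M2 against KO M0. At an unadjusted p under 0.05, limma had 0 of the 6 in KO M1 and in KO M2 against KO M0 and 2 in KO M1 against KO M2, and the methods' t-test 1, 0 and 1. Osm, a macrophage ligand that signals through gp130, read 152 and 157 in KO M1, 148 and 139 in KO M2 and 163 and 144 in KO M0. Of 4 listed IL-10 family ligands 2 were measured, Il20 and Il24, and neither passed the test (1 of 2 at an unadjusted p under 0.05 in KO M1 against KO M0 and in KO M1 against KO M2 and 0 in KO M2 against KO M0, by limma and by the methods' t-test). Each gene of these lists is given at its probe set of highest mean.

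Among the receptors, the chains that work with gp130 or bind IL-12 family cytokines moved in different directions. Of Lifr, Osmr and Cntfr, which pair with gp130 in the receptors of other IL-6 family ligands, Lifr, the receptor of leukaemia inhibitory factor, was called. It read 42 and 76.9 in KO M1, 63.7 and 50.9 in KO M2 and 144 and 144 in KO M0. The readings of 42 and 50.9 were below the level of tissue-restricted genes. The log2 change of Lifr was -1.34 in KO M1 and in KO M2 against KO M0 (adjusted p = 0.016 in each). Without the mouse 1 or the mouse 2 array of KO M0 these were 0.12 and 0.11 in both comparisons, and in KO M2 they were 0.06 and 0.11 without its own mouse 1 or mouse 2 array. Of its other 2 probe sets 1 was lower in KO M1 against KO M0, at -0.91 (adjusted p = 0.0064), and neither was called in KO M2 against KO M0. Il27ra, which pairs with gp130 in the IL-27 receptor, read 50.4 and 61.2 in KO M1, 168 and 213 in KO M2 and 72.9 and 86.3 in KO M0. It rose in KO M2 as Il6st did, by 1.25 on the log2 scale against KO M0 (adjusted p = 0.003), and was at -0.51 in KO M1 (adjusted p = 0.12). Il12rb1, the p40-binding chain of the IL-12 and IL-23 receptors, read 193 and 145 in KO M1, 62.8 and 65.5 in KO M2 and 81.9 and 75.6 in KO M0. It rose in KO M1, by 1.09 against KO M0 (adjusted p = 0.004, and 0.052 without the mouse 2 array of KO M0).

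Of 6 IL-10 family receptor genes, 1 was higher in KO M1 against KO M0, and 1 was higher and 1 lower in KO M2 against KO M0. Il20rb, a receptor chain for IL-20 family cytokines, read 31.7 and 32.9 in KO M1, 158 and 195 in KO M2 and 25.3 and 37.2 in KO M0. It rose in KO M2 against KO M0 by 2.52 on the log2 scale (adjusted p = 0.00018). Its KO M1 and KO M0 readings were below the array medians. Il10ra, the ligand-binding chain of the IL-10 receptor, read 604 and 525 in KO M1, 219 and 169 in KO M2 and 344 and 287 in KO M0. Its log2 change was 1.55 in KO M1 against KO M2 (adjusted p = 0.00045), 0.84 in KO M1 against KO M0 (adjusted p = 0.019) and -0.71 in KO M2 against KO M0 (adjusted p = 0.039). The adjusted p of the change in KO M1 against KO M0 was 0.07 and 0.16 without the mouse 1 or the mouse 2 array of KO M0 and 0.072 without the mouse 1 array of KO M1. That in KO M2 against KO M0 was 0.29 and 0.1 without the mouse 1 or the mouse 2 array of KO M0 and 0.052 and 0.21 without the mouse 1 or the mouse 2 array of KO M2. The other 2 probe sets of Il10ra passed the test in no comparison.

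Downstream of these receptors, of 8 JAK, STAT and SOCS genes 3 were higher in KO M1 against KO M0 (Jak2, Stat3 and Socs3) and 2 were higher in KO M2 against KO M0 (Jak2 and Socs1). Genes of this list that were lower are not reported here. Socs3, the inhibitor that binds gp130, read 1333 and 1229 in KO M1, 74.3 and 75.9 in KO M2 and 57.4 and 94.7 in KO M0, a rise in KO M1 of 4.12 on the log2 scale (adjusted p = 4.2e-05). Jak2, a kinase that gp130 receptors use, read 1528 and 1039 in KO M1, 1198 and 1105 in KO M2 and 325 and 322 in KO M0, and rose by 1.96 in KO M1 (adjusted p = 0.00047) and by 1.83 in KO M2 (adjusted p = 0.00066). Socs1, an inhibitor of interferon and IL-4 receptors, read 261 and 86.2 in KO M1, 763 and 656 in KO M2 and 50.6 and 50.3 in KO M0, where both were below the level of tissue-restricted genes. It rose by 3.81 in KO M2 against KO M0 (adjusted p = 0.001), and its 1.57 in KO M1 did not pass the test (adjusted p = 0.057). Its other probe set passed the test in no comparison. Stat3, the main transducer of IL-6 and IL-10, was 1.64-fold higher in KO M1 than in KO M0 (adjusted p = 0.019). That p was 0.17 without the mouse 1 array of KO M0, 0.057 without the mouse 2 array of KO M0 and 0.052 without the mouse 2 array of KO M1, and of its other 3 probe sets 1 passed the test in the same comparison.

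Of 17 regulators of transcription and mRNA decay of these cytokines, 4 were higher and none lower in KO M1 against KO M0 by limma (2 were lower at an unadjusted p under 0.05, and 1 by the methods' t-test), and 7 were higher and 2 lower in KO M2 against KO M0, each gene at its brightest probe set. The 4 were Batf, Cebpb, Cebpd and Zfp36, and Batf, a partner of interferon regulatory factors, read 1510 and 787 in KO M1, 373 and 396 in KO M2 and 261 and 299 in KO M0, a log2 change of 1.97 in KO M1 against KO M0 (adjusted p = 0.0029). Cebpb, an activator first known for Il6, was at 1.48 (adjusted p = 0.00092). Zfp36, which destabilises cytokine mRNAs, was at 0.64 (adjusted p = 0.042, but 0.076 in the fit blocked by mouse and between 0.058 and 0.28 when a single KO M1 or KO M0 array was left out). Cebpd was at 1.27 (adjusted p = 0.023, and 0.18 without the mouse 1 array of KO M0 and 0.073 without the mouse 1 array of KO M1), but at 0.22 (adjusted p = 0.4) at its other probe set.

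In KO M2 the regulators with the largest rise were Irf4 and Batf3. Irf4 read 25.8 and 28.8 in KO M1, 334 and 335 in KO M2 and 28 and 23.6 in KO M0. Those of KO M1 and KO M0 were below the array medians. The log2 change of Irf4 was 3.7 in KO M2 against KO M0 (adjusted p = 3.1e-06). Its other probe set was at 0.98 in that comparison (adjusted p = 0.046). Batf3 read 110 and 94.2 in KO M1, 839 and 1027 in KO M2 and 149 and 135 in KO M0, a log2 change of 2.71 (adjusted p = 3.3e-05). Cebpd, named above for KO M1, was also higher in KO M2 against KO M0, at 1.42 (adjusted p = 0.014). Its other probe set was at 0.36 (adjusted p = 0.17), and KO M1 and KO M2 did not differ (-0.15, adjusted p = 0.77, at the first). The 2 that fell were Maf, an activator of Il10, at -1.44 (adjusted p = 0.0085, and 0.071 and 0.079 without the mouse 1 or mouse 2 array of KO M0), and Nfkbiz, a nuclear IkB protein needed for Il6 and Il12b induction. All of the other 5 probe sets of Maf were lower in KO M2 against KO M0, and 2 of them in KO M1 against KO M0, at -1.03 (adjusted p = 0.039) and -0.89 (adjusted p = 0.024). Nfkbiz read 950 and 211 in KO M1, 20 and 47.3 in KO M2 and 271 and 453 in KO M0, with the KO M1 arrays far apart and mouse 1 the higher, as for Il6, Il12a and Il10. Its KO M2 readings were below the level of tissue-restricted genes. At its other 2 probe sets the log2 change in KO M2 against KO M0 was -2.33 (adjusted p = 0.005) and -1.93 (adjusted p = 0.069). In KO M1 against KO M2 these were at 2.52 and 2.27, both past the test. At the probe set read here the change in KO M2 against KO M0 was -3.51 (adjusted p = 0.014). That p was 0.071 and 0.12 without the mouse 1 or mouse 2 array of KO M0 and 0.11 without the mouse 1 array of KO M2. The change in KO M1 against KO M2 was 3.86 (adjusted p = 0.0049), and it was between 2.78 and 4.95, always past the test, when a single array of either condition was left out.

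**Figure D4:**
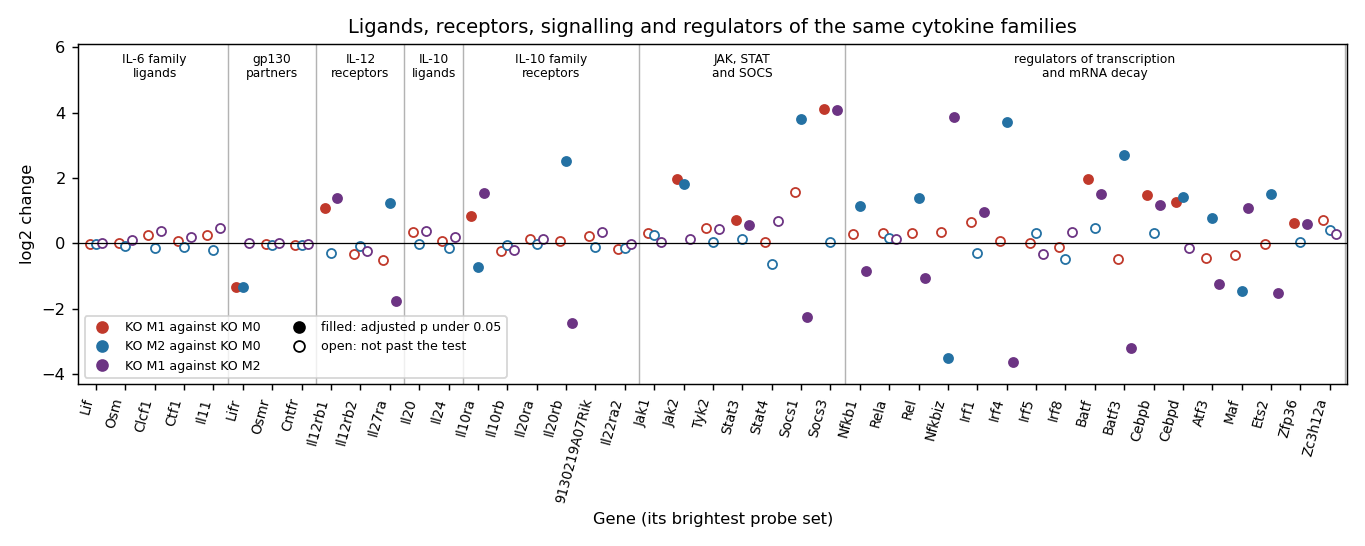
log2 change of measured genes of 7 lists of ligands, receptors, signalling genes and regulators, each at its brightest probe set, in KO M1 against KO M0 (red), KO M2 against KO M0 (blue) and KO M1 against KO M2 (purple). Filled symbols passed an adjusted p of 0.05. No ligand is filled, and the highest points against KO M0 are Socs3 in KO M1 (4.12) and Socs1 and Irf4 in KO M2 (3.81 and 3.7).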

How the data were processed

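Total RNA of macrophages from 2 KO mice in 3 conditions was hybridised to 6 Affymetrix mouse arrays. RMA in GenePattern, version not stated, was the authors' normalization, and they deposited linear intensity values per probe set in 2 tables that differed by at most 5e-06. RMA makes the distributions of arrays alike, and the medians of the log2 intensities spanned 0.107 over the arrays. The deposited table also holds the authors' means, folds and p-values, which were not used. Precision is limited by the 2 arrays per condition.

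Of 45101 probe sets 64 controls were left out. Of the rest 38544 had 1 symbol, 859 several and 5634 none. A limma 3.58.1 model in R 4.3.3 with a mean per condition was fitted to the log2 intensities of all 6 arrays, with 3 residual and 5.49 prior degrees of freedom. Two-sided p-values received Benjamini-Hochberg adjustment over 45037 probe sets, and a probe set was called at an adjusted p under 0.05. The fit was also run on simulated data with known changes. Their spread was drawn from the limma fit itself, with independent normal errors, so this run cannot test whether the model suits these arrays. Named pathway genes are those of each list past the test, up to 4 by size of change. Stat3, Cebpb, Cebpd, Zfp36 and Maf were added after their values were seen, to name short counts, as was Osm. A few genes that this rule would name are left out of the text and plots. The members and lists were chosen with earlier results of these data known.

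The labels title the arrays KO1 or KO2 and name 2 independent mice, and the numbers were read as the mice, so that they pair the arrays across conditions. Over all probe sets the difference between the mice in KO M1 correlated with that in KO M0 at -0.162 and with that in KO M2 at -0.215, and the KO M2 and KO M0 differences correlated at 0.209, so these values do not settle the pairing. Alternatives were the mouse as a block, leaving out each array, the second deposited table, median centring, quantile normalization of the 6 arrays, a variance trend, a filter on dim probe sets, only the 2 conditions compared, the methods' t-test and a fold of 2.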

Additional observations from a re-analysis of the deposited data

How the results depend on the processing

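KO M1 against KO M0 had 4 of 13 probe sets called, KO M2 against KO M0 had 7 and KO M1 against KO M2 had 8. In the fit blocked by mouse these counts were 5, 6 and 8, and no other call than those of Il6ra and Il6st given above changed among the 13. With the mice crossed, an alternative chosen after seeing the data, KO M1 against KO M0 had 7. Leaving out single arrays gave 2 to 7 in KO M1 against KO M0, 4 to 8 in KO M2 against KO M0 and 6 to 10 in KO M1 against KO M2, where a lone array was assumed to vary like the other conditions. The lowest counts in KO M1 against KO M0 came without either KO M0 array and the highest without the mouse 2 array of KO M1, and the lowest in KO M2 against KO M0 came without the mouse 1 array of KO M0 or the mouse 2 array of KO M2. The lowest in KO M1 against KO M2 came without either KO M2 array. Calls over all probe sets were likewise fewest without a KO M0 array, and most without the mouse 2 array of KO M1, in KO M1 against KO M0. They were also fewest without a KO M2 array in KO M1 against KO M2. These swings are thus not particular to the 13 probe sets. The methods' t-test, on linear intensities, called 2 in KO M1 against KO M0, 5 in KO M2 against KO M0 and 6 in KO M1 against KO M2 at its unadjusted threshold. Of all 45037 probe sets it had 2844 higher and 2975 lower, 3171 and 3277, and 3305 and 3232 in these comparisons. After Benjamini-Hochberg adjustment it called 0 of the 13 in each comparison, where limma called 4, 7 and 8. It then called 0 of all probe sets as well, so this 0 is not particular to the 13.

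The direction turned, without one array, only in genes whose change did not pass the test. Over the arrays left out, the log2 change in KO M1 against KO M2 ran between -0.72 and 1.22 for Il6, -0.12 and 1.53 for Il10 and -0.15 and 0.07 for Il23a. For KO M2 against KO M0 it ran between -0.18 and 0.19 for Il12b, and for KO M1 against KO M0 between -0.06 and 0.16 for Il23a and -1.14 and 0.5 for Il10. The ends for Il6 came without the mouse 1 and the mouse 2 array of KO M2, those for Il10 and Il23a without an array of KO M1, and those for Il12b without an array of KO M0. Of 324 values for the 8 genes under the alternatives, 293 kept direction and side of the threshold, 15 newly passed it, 7 no longer passed it and 9 turned. The cause was not tested. The 324 values took each gene at its brightest probe set and did not include the methods' t-test or the fold of 2. By design the mouse block, the variance trend, the filter on dim probe sets and only the 2 conditions compared keep the log2 change. So does leaving out an array of the condition not compared, and the second deposited table holds nearly the same values. Direction could not turn in these, so the 293 is no measure of stability. Losses at the other probe sets of Il6ra and Il6st, given above, are not among them. Every reading of Il6, Il12a, Il12b, Il23a and Il10 lay at or below the 95th percentile of tissue-restricted genes.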
